A study of Mus musculus with 14 samples.

Results

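A set of 9 genes of the cyclic AMP (cAMP) pathway of meiotic arrest was followed across mouse oocytes that overexpressed ribonuclease H1 or a control. They were chosen by name and do not all act in the same direction, since Pde3a encodes an enzyme that removes cAMP. The list held the receptors Gpr3 and Gpr12, the adenylyl cyclase Adcy3, the phosphodiesterase Pde3a and the protein kinase A (PKA) subunits Prkaca and Prkar1a. It also held the anchoring protein Akap1, the connexin Gja4 and the kinase Wee2. All 9 were found in both deposited tables, among 35389 gene identifiers in one and 35341 gene symbols in the other. Rnaseh1 encodes the enzyme that degrades RNA paired with DNA, mCherry is a red fluorescent protein and served as the control, and Supt6 encodes a transcription elongation factor that also handles histones. The first table held oocytes named by their chromatin, with a non-surrounded nucleolus (NSN) or a surrounded nucleolus (SN), each overexpressing mCherry or Rnaseh1. The second table, the rescue set, held oocytes that overexpressed mCherry, Rnaseh1, or Rnaseh1 together with Supt6, and its labels named no chromatin state. Each of the 7 groups had 2 libraries, 14 in all. Strain, age, vector and duration of overexpression are not given in the sources used here. Nor is it stated that replicate libraries come from different animals or pools, so p-values measure only the spread between libraries, which may be technical.

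In the arrested oocyte, cAMP keeps PKA active, and PKA holds cyclin-dependent kinase 1 (CDK1) in check until ovulation. The oocyte makes its own cAMP through constitutively active receptors such as GPR3, which act through the stimulatory G protein on adenylyl cyclases. Cyclic GMP enters from the surrounding granulosa cells through gap junctions and keeps the phosphodiesterase PDE3A from degrading the cAMP. At the end of the pathway the oocyte kinase WEE2 places the inhibitory phosphate on CDK1.

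Levels are given as TPM, the number of transcripts of a gene among 1000000, which are scaled for transcript length and can be compared between genes. TPM keeps no sequencing depth, so the depth behind a value is unknown and no counting error is given. The libraries held 10036 to 12230 genes at a TPM of at least 1. Within a group the libraries correlated across genes at 0.963 to 0.989, except NSN with Rnaseh1 (0.865) and SN with mCherry (0.908), whose libraries differed more. In the rescue set Rnaseh1 went from 119 ± 7.69 TPM with mCherry to 934 ± 437 with Rnaseh1 and 2144 ± 179 with both constructs (SD, n = 2). It was at 122 ± 20.5 TPM with mCherry and 487 ± 365 with Rnaseh1 in NSN oocytes, and at 106 ± 35.4 and 1222 ± 196 in SN oocytes (SD, n = 2). The overexpressed gene was itself not called in NSN (log2 fold change 1.76, limma adjusted p = 0.755) or SN oocytes (3.55, adjusted p = 0.407). Supt6 in the rescue set was at 3.21 ± 0.099, 2.78 ± 0.325 and 24.6 ± 5.08 TPM with mCherry, Rnaseh1 and both (SD, n = 2). All 14 oocyte markers listed, such as Zp3, Gdf9 and Bmp15, were at 1 TPM or more in every group. Among 15 granulosa and cumulus markers, 2 or 3 reached that level in both libraries of a group. Cyp19a1 was the highest of them, at 13 to 46.1 TPM in the first table and 38.1 to 44.9 in the rescue set, and Nr5a2 was at 4.2 to 8.19 TPM over all libraries, while Amh, Amhr2 and Foxl2 were listed at 0 in every library.

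The members spanned a wide range of levels, from Wee2 or Gja4 at the top to Adcy3 at the bottom in every group. With mCherry in NSN oocytes, Wee2 stood highest at 608 ± 94.3 TPM, then Gja4 at 120 ± 1.2, Akap1 at 50.9 ± 4.5 and Prkar1a at 18.3 ± 1.88 (SD, n = 2). Pde3a followed at 18 ± 0.325, Prkaca at 4.04 ± 1.37, Gpr3 at 2.89 ± 2.08, Gpr12 at 0.72 ± 1.02 and Adcy3 at 0.05 ± 0.0141 (SD, n = 2). The ranges of Prkar1a and Pde3a overlapped there, as did those of neighbours from Prkaca down to Adcy3. In the rescue set with mCherry the order differed at the top and in the middle, with Gja4 at 789 ± 10.3 above Wee2 at 496 ± 12.4 and Gpr3 at 22.9 ± 3.87 beside Pde3a at 19 ± 4.38 (SD, n = 2). The 2 tables were normalized separately, so a level in one against the other carries no test.

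**Figure D1:**
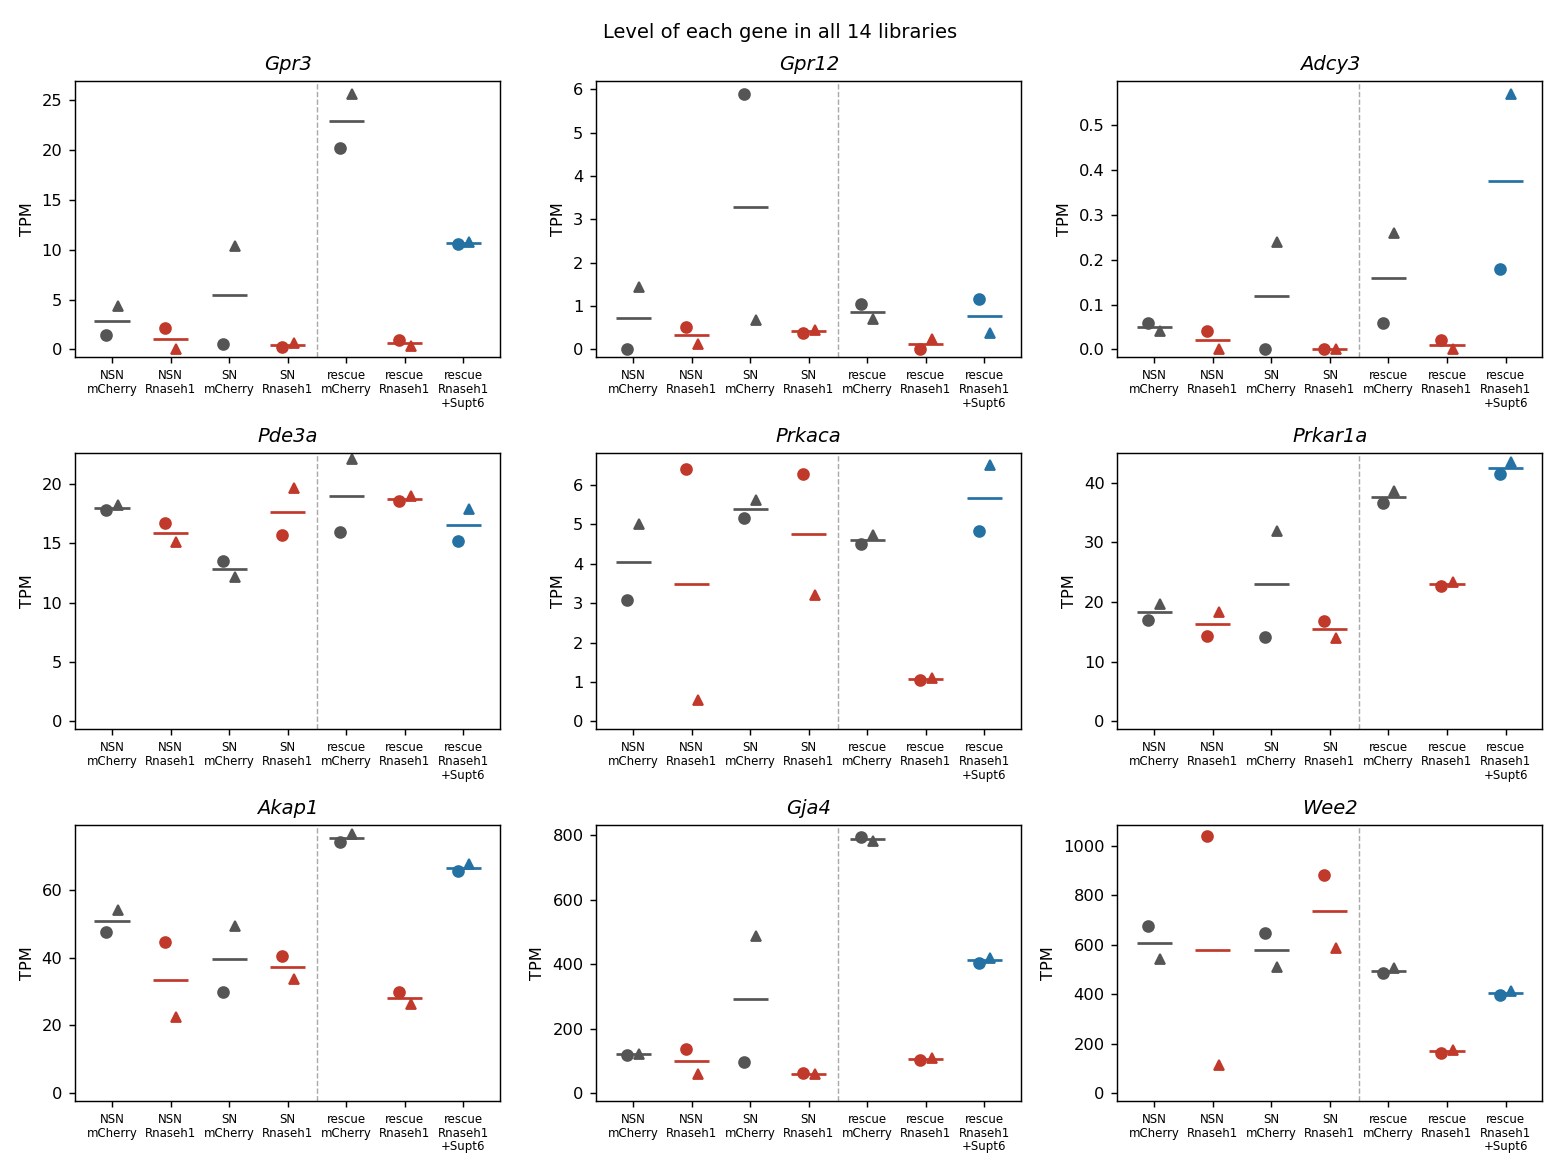
Level in TPM (vertical axis, one panel per gene, each with its own scale) of the 9 genes in the 14 libraries; circles are replicate 1, triangles replicate 2 and bars the mean of the 2, and the dashed line parts the NSN and SN table from the rescue table. In the rescue panels of Gpr3, Prkaca, Prkar1a, Akap1, Gja4 and Wee2, both Rnaseh1 libraries lie below both mCherry and both Rnaseh1 plus Supt6 libraries, while the mCherry and Rnaseh1 libraries of Pde3a overlap.

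Most of these transcripts were lower with Rnaseh1 in the rescue set and closer to the control when Supt6 was added. Gpr3, Gja4, Wee2, Prkaca, Akap1 and Prkar1a fell with Rnaseh1, 6 of the 8 members tested, while Pde3a and Gpr12 did not pass and Adcy3 was too low to test. The fall left Gpr3 at 2.9%, Gja4 at 13.3%, Prkaca at 23.4%, Wee2 at 33.9%, Akap1 at 37.3% and Prkar1a at 61.2% of the mCherry mean TPM. With Supt6 added, all 6 rose above the level with Rnaseh1 alone. Those 2 groups differ in more than Supt6. Rnaseh1 itself was higher with both constructs than alone (log2 fold change 1.28, SE 0.28, limma adjusted p = 0.0062). Gpr3 and Gja4 remained below mCherry, a call that held in all 15 alternative analyses for Gja4 and in 6 for Gpr3. A fall was also common among all genes, since limma called 66.5% of the 12859 genes tested in this comparison, 46.2% lower and 20.3% higher, at an adjusted p under 0.05. The members' median log2 fold change was -1.41 and that of all genes -0.52. TPM counts transcripts among 1000000, so a fall is a fall in share, and the total RNA per oocyte is not given. In bulk libraries, fewer cells of a type in the mixture and less RNA of a gene per cell cannot be told apart.

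Sequence before the RefSeq start is shown for Gpr3, Gja4 and Wee2, the members whose fall with Rnaseh1 passed under all 15 alternative analyses, because these stretches differ widely in base composition. Each line gives the 250 bases before the RefSeq start (GRCm38.p6), 5′ to 3′ on the gene's own strand, with every CpG in capitals. Gpr3 lies at chr4:133212537-133212786 on the minus strand, Gja4 at chr4:127314040-127314289 on the minus strand and Wee2 at chr6:40442613-40442862 on the plus strand. The Wee2 stretch lies inside the longer Wee2 gene of GENCODE, past its annotated start.
Gpr3: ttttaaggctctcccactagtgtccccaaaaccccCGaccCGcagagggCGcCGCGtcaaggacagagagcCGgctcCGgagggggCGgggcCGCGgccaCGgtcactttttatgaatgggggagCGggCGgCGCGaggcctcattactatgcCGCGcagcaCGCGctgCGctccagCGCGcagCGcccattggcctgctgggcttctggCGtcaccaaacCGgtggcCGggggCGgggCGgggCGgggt
Gja4: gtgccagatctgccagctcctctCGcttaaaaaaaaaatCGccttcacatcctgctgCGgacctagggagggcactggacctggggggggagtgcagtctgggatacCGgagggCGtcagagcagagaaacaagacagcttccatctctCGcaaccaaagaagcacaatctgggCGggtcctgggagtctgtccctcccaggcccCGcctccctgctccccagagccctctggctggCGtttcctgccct
Wee2: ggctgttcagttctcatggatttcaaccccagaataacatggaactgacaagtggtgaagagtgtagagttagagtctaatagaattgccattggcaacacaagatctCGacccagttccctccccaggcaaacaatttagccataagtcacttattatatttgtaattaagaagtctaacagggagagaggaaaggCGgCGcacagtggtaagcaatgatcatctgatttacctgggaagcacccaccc
The Gpr3 stretch holds 29 CpG and is 70.8% GC, a higher GC content than 91.7% of the 32851 stretches of the same length in the RefSeq table. It lies within Cd164l2, a gene on the other strand. Gja4 holds 9 CpG at 61.2% GC, and Wee2 holds 3 at 44.4%, below the median of 6 CpG and 52.4% GC. Both strands were searched for TGACG, the core that cAMP response element binding proteins recognise and part of the full element TGACGTCA. It occurs 2 times before Gpr3, 1 time before Gja4 and not before Wee2, and 17.8% of all promoters hold it. The full TGACGTCA is in none of the 3 and in 1.5% of all promoters. Among the members not shown, TGACG occurs before Prkaca and Prkar1a and not before Gpr12, Akap1 or Adcy3. The full TGACGTCA occurs among them before a start of Prkar1a, at chr11:109650699-109650948. Of the 9 members, 8 had a promoter in the table, and Pde3a did not.

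Gpr3 (ENSMUSG00000049649.8, chr4:133209340-133212536, GRCm38) encodes the constitutively active receptor that sustains cAMP in mouse oocytes. In the rescue set it stood at 20.2 and 25.6 TPM with mCherry, 0.94 and 0.39 with Rnaseh1, and 10.6 and 10.8 with Rnaseh1 plus Supt6. The 3 groups did not overlap. On the log2(TPM + 1) scale used for all tests, which understates the change of low genes, Gpr3 fell by 3.85 with Rnaseh1 (SE 0.25, limma adjusted p = 1.25e-05). With Supt6 added it was 2.83 higher than with Rnaseh1 alone (SE 0.25, adjusted p = 7.68e-05), to 46.6% of the mCherry mean. Against mCherry it stood at -1.02 with both constructs (SE 0.25, limma adjusted p = 0.0393). That call was lost in 9 of 15 alternatives, among them leaving out any 1 of the 4 libraries compared. A pseudocount of 0.1, no filter, a block for replicate number and removal of the trend on transcript GC content also ended it. In NSN oocytes Gpr3 was at 1.42 and 4.36 TPM with mCherry and at 2.18 and 0 with Rnaseh1. In SN oocytes it was at 0.53 and 10.4 TPM with mCherry and at 0.22 and 0.68 with Rnaseh1. The groups overlapped in both chromatin states.

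The 5′ end of Gpr3 overlaps Cd164l2 on the opposite strand (chr4:133212131-133224555), with 204 exonic bases in common, and the strand used in counting is not given in the sources used here. In the rescue set Cd164l2 was much higher, at 1484 and 1370 TPM with mCherry, 71.9 and 67.2 with Rnaseh1 and 1097 and 1129 with both. It fell by 4.34 on the log2 scale with Rnaseh1 (SE 0.08, adjusted p = 4.27e-07) and was -0.36 below mCherry with both (SE 0.08, adjusted p = 0.0293). Gpr3 equalled 1.36 to 1.87% of the Cd164l2 level with mCherry, 0.581 to 1.31% with Rnaseh1 and 0.955 to 0.961% with both. Over the 14 libraries, with each table's mean subtracted, the log2 levels of the 2 genes correlated at 0.89. Reads from the shared bases cannot be told apart, and their part in the Gpr3 values was not tested.

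Gpr12 (ENSMUSG00000041468.7, chr5:146582398-146585239) encodes a related receptor that also raises cAMP. Its levels were near the filter of 1 TPM, at 1.04 and 0.71 TPM with mCherry, 0 and 0.25 with Rnaseh1, and 1.16 and 0.38 with both in the rescue set. Both Rnaseh1 libraries lay below the others. The difference between Rnaseh1 and mCherry of -0.74 (SE 0.31) did not pass, with a limma adjusted p = 0.0703. In the first table the values ran from 0 to 1.44 TPM outside of 1 SN mCherry library at 5.9. Gpr6, the remaining relative of these receptors, was listed at 0 in all 14 libraries. Gpr3 made up 95.1 to 97.3% of the summed TPM of the 3 receptors with mCherry in the rescue set and 90.1 to 96.6% with both constructs. With Rnaseh1 alone it was 60.9 to 100% of a sum under 1 TPM, and in the first table it ran from 0 to 80.7% in NSN with Rnaseh1 and from 8.24 to 93.8% in SN with mCherry.

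Adcy3 (ENSMUSG00000020654.15, chr12:4133103-4213525) encodes an adenylyl cyclase, the class of enzyme that makes cAMP. It did not reach 1 TPM in any library and was not tested. In the rescue set it was at 0.06 and 0.26 TPM with mCherry, 0.02 and 0 with Rnaseh1, and 0.18 and 0.57 with Rnaseh1 plus Supt6, which overlapped mCherry. It was listed at 0 in both SN libraries with Rnaseh1 and never exceeded 0.24 TPM in the first table. Adcy3 shares 1380 exonic bases with Cenpo on the opposite strand, which was at 171 and 177 TPM with mCherry, 54 and 48.4 with Rnaseh1 and 146 and 150 with both, so even these low values may hold reads of either gene. Most cyclase transcript came from other members. With mCherry, Adcy6 took 43.2 to 66.1% of the summed cyclase TPM in NSN and 42.2 to 53.3% in SN oocytes but 1.09 to 1.63% in the rescue set, where Adcy5 took 53 to 58.5%. The sum of the 10 cyclases was 14.1 to 15.6 TPM with mCherry, 2.88 to 3.14 with Rnaseh1 and 9.42 to 10.2 with both in the rescue set. In SN oocytes it was 10.2 to 12.8 TPM with mCherry and 4.25 to 4.97 with Rnaseh1. In NSN oocytes the sums overlapped, at 9.3 to 23 TPM with mCherry and 1.69 to 20.9 with Rnaseh1.

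Pde3a (ENSMUSG00000041741.10, chr6:141249269-141507448) encodes the phosphodiesterase that removes cAMP in the oocyte and whose inhibition by cyclic GMP keeps arrest. It was at 15.9 and 22.1 TPM with mCherry, 18.5 and 19 with Rnaseh1, and 15.2 and 17.9 with both. The Rnaseh1 libraries lay between the 2 mCherry libraries. The log2 fold change with Rnaseh1 was -0.00 with a 95% interval from -0.47 to 0.46, which leaves larger changes in either direction outside it. Because most genes fell, this placed Pde3a 0.52 above the median change of all genes. When each library was centred on the median of its genes with a mean of at least 10 TPM, Pde3a was at 0.58. It was past the threshold there (limma adjusted p = 0.0244), and quantile normalization gave 0.70 (adjusted p = 0.0119). Pde3a varied little elsewhere too, from 12.1 to 19.6 TPM over the 8 NSN and SN libraries. It took 17 to 20% of the summed TPM of 17 phosphodiesterases with mCherry and 20.1 to 22.7% with Rnaseh1 in the rescue set. Its 5′ part overlaps the antisense gene Gm28523 by 741 exonic bases, and reads of the 2 cannot be told apart.

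PKA is a tetramer of catalytic and regulatory subunits. Prkaca (ENSMUSG00000005469.10, chr8:83972993-83996443), the main catalytic subunit gene, was at 4.5 and 4.73 TPM with mCherry, 1.05 and 1.11 with Rnaseh1 and 4.83 and 6.52 with both. Prkaca fell by 1.43 with Rnaseh1 (SE 0.24, adjusted p = 0.00157) and rose by 1.67 when Supt6 was added (SE 0.24, adjusted p = 0.000907). With both constructs it was 0.24 from mCherry (SE 0.24, adjusted p = 0.601), and the interval ran from -0.34 to 0.81. The mouse genome holds a processed copy, Prkaca-ps1, which makes these low values uncertain. Prkacb, the other catalytic subunit gene, was at 1.4 to 1.75 TPM with mCherry and 1.51 to 2.48 with Rnaseh1 and did not pass. The share of Prkaca in the summed catalytic TPM was thus 73 to 76.3% with mCherry, 30.9 to 41% with Rnaseh1 and 74.8 to 82.1% with both.

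Prkar1a (ENSMUSG00000020612.16, chr11:109649405-109669656) encodes the type I alpha regulatory subunit, which binds cAMP and releases the catalytic subunit. It was at 36.7 and 38.7 TPM with mCherry, 22.6 and 23.4 with Rnaseh1 and 41.5 and 43.5 with both. The groups did not overlap, and the group with both constructs was the highest. Prkar1a fell by 0.69 with Rnaseh1 (SE 0.12, adjusted p = 0.00187), the smallest fall among the 6 members called, and was 0.86 higher with Supt6 added than without (SE 0.12, adjusted p = 0.000776). Relative to the median of all genes the fall was -0.16. With each library centred as for Pde3a it was -0.10 and not past the threshold (limma adjusted p = 0.47). Summed over the regulatory genes Prkar1a, Prkar1b, Prkar2a and Prkar2b, the level was 12.2 to 12.4 times that of the catalytic genes with mCherry. That ratio was 13.1 to 19.3 with Rnaseh1 and 11.1 to 12.2 with both. Of the regulatory genes, Prkar2a fell by 2.06 with Rnaseh1, from 18.4 to 19.5 TPM down to 3.33 to 4.27.

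Akap1 (ENSMUSG00000018428.15, chr11:88830792-88864586) encodes an anchoring protein that tethers PKA to the outer mitochondrial membrane. It was at 74 and 76.5 TPM with mCherry, 29.9 and 26.2 with Rnaseh1 and 65.5 and 67.6 with both. All 3 groups were separate. Akap1 fell by 1.40 with Rnaseh1 (SE 0.12, adjusted p = 4.05e-05) and rose by 1.22 with Supt6 (SE 0.12, adjusted p = 0.000108). Both calls ended with the trend on transcript GC content removed, where the changes were -0.24 (adjusted p = 0.0956) and 0.28 (adjusted p = 0.0613). Its remaining difference from mCherry, -0.17 with an interval from -0.45 to 0.10, did not pass (adjusted p = 0.391). Its share of the summed TPM of the A-kinase anchoring proteins went from 25 to 26.4% with mCherry to 9.46 to 11.5% with Rnaseh1 and was 23.8 to 25.5% with both. The sum of that class was 280 to 307 TPM with mCherry and 259 to 277 with Rnaseh1. Akap7, its most abundant gene, was at 82.8 to 95.1 TPM with mCherry and at 103 to 128 with Rnaseh1.

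Gja4 (ENSMUSG00000050234.7, chr4:127311421-127314039) encodes the connexin that the oocyte contributes to its gap junctions with granulosa cells. It was at 797 and 782 TPM with mCherry, 102 and 108 with Rnaseh1, and 404 and 420 with both. The groups were far apart, with the libraries of each within a few percent of each other. Gja4 fell by 2.90 with Rnaseh1 (SE 0.08, adjusted p = 6.89e-07). With Supt6 added it was 1.96 higher (SE 0.08, adjusted p = 2.59e-06), to 52.1% of the mCherry mean. With both constructs it was still -0.94 below mCherry (SE 0.08, adjusted p = 0.00241), and this call held in all 15 alternatives. Gja4 made up 98 to 99.1% of the summed TPM of the 5 connexins in every rescue library, so the connexin total moved with it.

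Wee2 (ENSMUSG00000037159.11, chr6:40439088-40466813) encodes the oocyte kinase that PKA activates and that keeps CDK1 inactive. It was at 487 and 505 TPM with mCherry, 162 and 175 with Rnaseh1 and 395 and 414 with both. No groups overlapped. Wee2 fell by 1.55 with Rnaseh1 (SE 0.08, adjusted p = 4.49e-06) and rose by 1.26 with Supt6 (SE 0.08, adjusted p = 1.67e-05). The difference that remained from mCherry was -0.29 (SE 0.08) with an adjusted p = 0.0546, just short of the threshold, and it passed in 5 of 15 alternatives. Wee2 made up 92.4 to 93.6% of the summed TPM of the CDK1 inhibitory kinases Wee2, Wee1 and Pkmyt1 with mCherry and 94.6 to 97.6% with Rnaseh1. The summed level of these kinases was 6.65 to 7.25 times that of the opposing phosphatases Cdc25a, Cdc25b and Cdc25c with mCherry. It was 5.67 to 5.75 times with Rnaseh1 and 6.11 to 6.97 times with both.

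**Figure D2:**
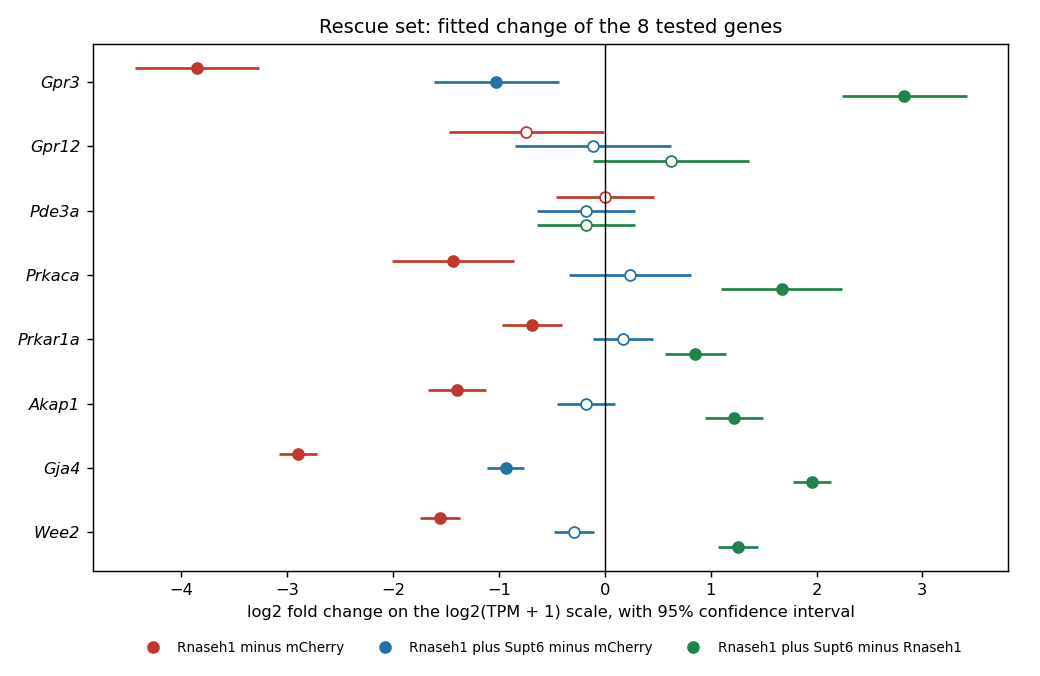
Fitted log2 fold change (horizontal axis, log2(TPM + 1) scale) with its 95% confidence interval for the 8 tested genes in the 3 comparisons of the rescue set; filled points passed an adjusted p under 0.05 and open points did not. The Rnaseh1 effects of Gpr3 (-3.85) and Gja4 (-2.90) lie farthest to the left, Pde3a lies at -0.00 (0.58 with median centring, which also ends the Prkar1a call), and the Rnaseh1 plus Supt6 intervals against mCherry of Gpr3, Gja4 and Wee2 stay below 0, of which Wee2 did not pass.

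The 3 comparisons of the rescue set share libraries, so their values stand side by side and are not independent. Rnaseh1 plus Supt6 against mCherry called 2 of 8 members lower and none higher, where limma called 13.3% of all genes, 7.6% lower and 5.71% higher. Against Rnaseh1 alone, 6 of 8 members were higher and none lower, where 58.9% of genes were called, 41.6% higher and 17.4% lower. In that comparison Pde3a was called lower with median centring (-0.69), quantile normalization (-0.76) and the GC trend removed (-0.65), and Akap1 was no longer called in the last. The median of the members was -0.18 in the first and 1.24 in the second, with medians of all genes at -0.04 and 0.44. Without an adjusted threshold, both Rnaseh1 libraries lay below both mCherry libraries for 7 of 8 members, as they did for 54.8% of genes. Prkaca and Prkar1a lay higher with both constructs than with mCherry in all libraries, as 26.8% of genes did, and Gpr3, Akap1, Wee2 and Gja4 lay lower, as 34.5% did.

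The overall fall depended on scale, and so did part of the members' count. Each library was centred on the median of its genes with a mean of at least 10 TPM over the set. This moved the median change of all genes with Rnaseh1 from -0.52 to 0.06 and the share of higher calls from 30.5 to 52.5%. After that centring Gpr3 (-3.27), Gja4 (-2.31), Wee2 (-0.97), Prkaca (-0.85) and Akap1 (-0.81) were still called lower, Prkar1a was not, and Pde3a was called higher. The summed TPM of the 14 oocyte markers moved in the same direction in the rescue set. It was 17846 to 18950 with mCherry, 5705 to 5988 with Rnaseh1 and 18110 to 19048 with both, and its part in the result was not tested. Single markers varied unequally over the rescue libraries. Gdf9 ran from 1170 to 7397 TPM and Zp3 from 567 to 4054, but Figla from 89.7 to 112.9 and Bmp15 from 927 to 1310. The sums of the 15 granulosa and cumulus markers were 53.9 to 55.5 TPM with mCherry, 45.9 to 54 with Rnaseh1 and 49.2 to 54.5 with both.

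The change with Rnaseh1 also ran with the base composition of the transcript. Across the 12603 genes with a known transcript GC content, the rank correlation between it and the log2 fold change was -0.53, over libraries that all genes share. Gpr3 (59.2% GC) has a higher GC content than 96.4% of tested genes and Gja4 (58.8%) than 95.5%, and genes within 1 point of them had median changes of -1.70 and -1.78, against their own -3.85 and -2.90. Wee2 (48.4% GC) fell by 1.55 where its neighbours in GC had a median of -0.40. Prkaca at -1.43 and Akap1 at -1.40 lay near the medians of their GC neighbours, -1.18 and -1.11. Prkar1a was at -0.69 beside -0.30, Pde3a at -0.00 beside -0.56 and Gpr12 at -0.74 beside -1.24. With a fitted GC trend removed from every library, Gpr3 (-2.14), Gja4 (-1.19), Wee2 (-1.20) and Prkar1a (-0.43) were called lower, Prkaca (-0.22) and Akap1 (-0.24) were not, and Pde3a (0.53) was called higher.

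**Figure D3:**
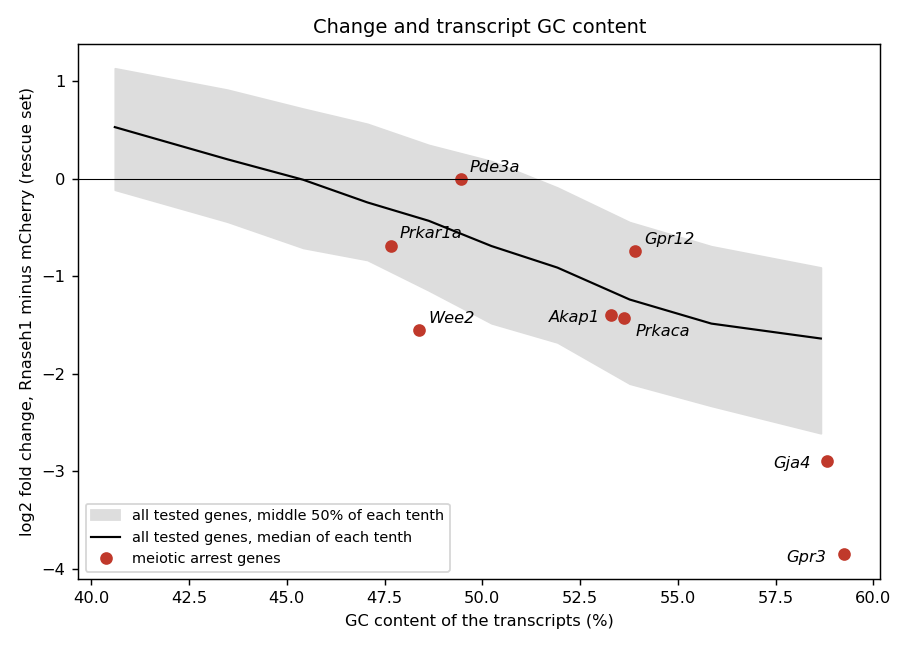
Log2 fold change of Rnaseh1 against mCherry in the rescue set (vertical axis) against the GC content of the transcripts in percent (horizontal axis); the line is the median and the band the middle 50% of all tested genes in 10 bins of GC content. Wee2 lies below the band, while Prkaca and Akap1 lie inside it close to the median. Gpr3 and Gja4 lie just past its right end at 58.7% GC, lower than the band's lower edge there (-2.61).

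The members were set among 88 genes of the wider pathway, listed by role, of which 61 were tested. With Rnaseh1 in the rescue set 29 fell and 7 rose, with a median of -0.57 against -0.52 for all genes. Leaving out the members, 23 fell and 7 rose of 53, with a median of -0.36. With Supt6 added, 8 of the 61 were below mCherry and 4 above (13.1% and 6.56%), beside 7.6% and 5.71% of all genes. Against Rnaseh1 alone, 29 were above and 7 below (47.5% and 11.5%), beside 41.6% and 17.4% of all genes. With Rnaseh1, 47.5% of the wider list was called lower and 11.5% higher, beside 46.2% and 20.3% of all genes.

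By role, counts called with Rnaseh1 are given with their shares, beside 46.2% of all genes called lower and 20.3% higher. Of 9 receptors and G proteins tested, 3 fell (33.3%) and 2 rose (22.2%). Gnas, the stimulatory G protein alpha subunit, rose by 1.07 while Gnai2, an inhibitory one, fell by 1.90. Of 3 adenylyl cyclases tested, Adcy5 fell by 2.51 and Adcy9 by 1.53 (66.7%). Of 12 phosphodiesterases, 3 fell (25%) and 1 rose (8.33%), with Pde1b at -2.71 and Pde4a at -1.71. Of 7 PKA subunits and inhibitors 4 fell (57.1%), among them Prkar2a and the inhibitor Pkig, which fell by 2.21. Of 9 anchoring proteins 3 rose and 3 fell (33.3% each), with Akap13 at -1.12 and Akap8 at -1.01. Akap8 turned to 0.058 with the GC trend removed. Of 4 genes of gap junctions and cyclic GMP supply 3 fell (75%). Gja3 was at -1.32, and at 0.40 with the GC trend removed. Gjb2 was at -1.29, and at -0.70 and not called with median centring. Of 17 targets at the end of the pathway 11 fell (64.7%) and 1 rose (5.88%). Among them were Cdk1 itself at -2.68 and Rapgef3, the cAMP-activated exchange factor, at -3.73. With the GC trend removed, Gnai2 (-0.25), Adcy9 (-0.12), Pde4a (-0.12) and Pkig (-0.50) were no longer called, and with quantile normalization Akap13 (-0.36) was not.

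**Figure D4:**
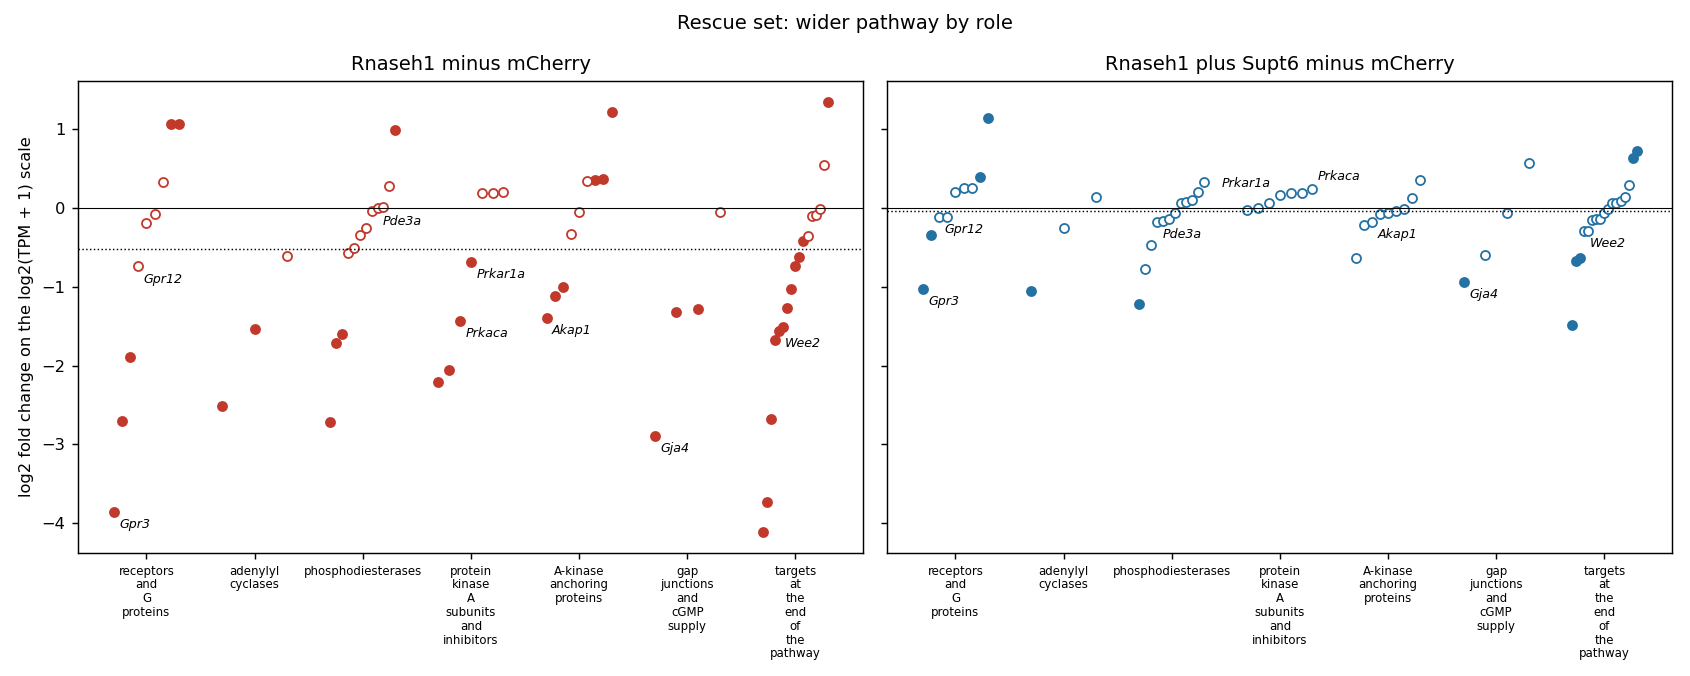
Log2 fold change on the log2(TPM + 1) scale (vertical axis) of the 61 tested genes of the wider pathway by role, for Rnaseh1 minus mCherry (left) and Rnaseh1 plus Supt6 minus mCherry (right) in the rescue set; filled points passed an adjusted p under 0.05, the dotted line is the median of all genes and the 8 tested members are named. On the left 29 genes are filled below 0 and 7 above; on the right 8 and 4 are, and most points lie close to the line.

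**Figure D5:**
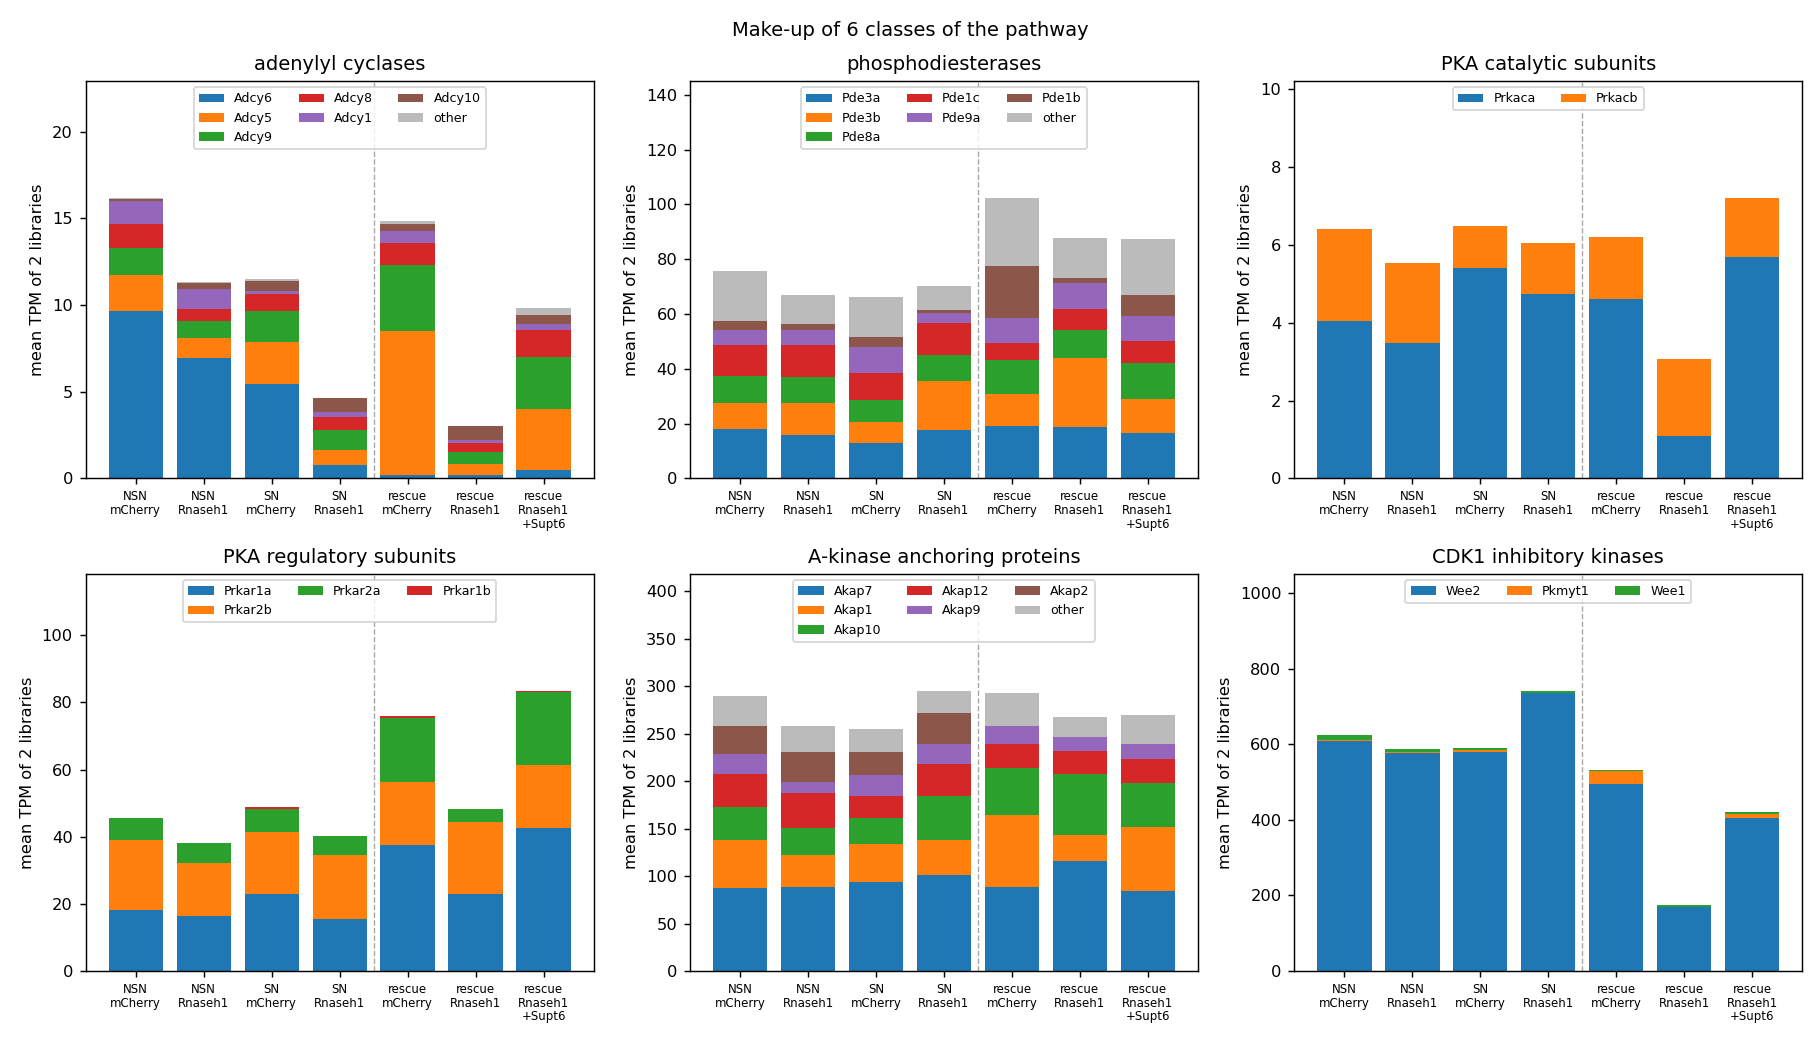
Mean TPM of 2 libraries (vertical axis) of 6 classes of the pathway in the 7 groups, stacked by gene with the most abundant genes named; the dashed line parts the separately normalized tables. Wee2 fills nearly all of the CDK1 inhibitory kinases, Pde3a takes 16.7 to 27.6% of the phosphodiesterases in every library, and Prkaca shrinks within the catalytic subunits with Rnaseh1 in the rescue set.

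In NSN and SN oocytes no member passed in any of 5 comparisons, and limma called 0% of the 12736 genes tested. The comparisons were Rnaseh1 against mCherry in each chromatin state, SN against NSN with each construct, and the difference between the 2 effects of Rnaseh1. Unadjusted p-values under 0.05 numbered 353 genes (2.77%) for Rnaseh1 in NSN and 859 (6.74%) for Rnaseh1 in SN. They numbered 328 (2.58%) for SN against NSN with mCherry, 584 (4.59%) with Rnaseh1 and 288 (2.26%) for the difference. The median standard error of a log2 fold change was 0.53 in this table and 0.23 in the rescue set.

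Among the members 1 comparison had an unadjusted p under 0.05, that of Gja4 with Rnaseh1 against mCherry in SN oocytes. That was 1 of 8 members tested, where 6.74% of all genes were under 0.05. Gja4 was at 97.4 and 487 TPM with mCherry and at 61.1 and 59.3 with Rnaseh1. Both Rnaseh1 libraries lay below both mCherry libraries, which differed from each other by 5 times. The log2 fold change was -1.84 (SE 0.73, limma adjusted p = 0.61). It was -0.69 without SN mCherry replicate 2 and -3.00 without replicate 1, with neither passing. In NSN oocytes Gja4 was at 119 and 121 TPM with mCherry and 138 and 60.3 with Rnaseh1, which overlapped. The difference between the effects of Rnaseh1 in SN and NSN was -1.45 (SE 1.03, adjusted p = 1).

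Pde3a was the member whose groups separated most often, in 3 of 4 comparisons. It was at 17.8 and 18.2 TPM with mCherry and 16.7 and 15.1 with Rnaseh1 in NSN oocytes. In SN oocytes it was at 13.5 and 12.1 TPM with mCherry and 15.7 and 19.6 with Rnaseh1. The Rnaseh1 libraries thus lay lower in NSN and higher in SN, and the log2 fold changes of -0.17 and 0.43 (SE 0.35 each) did not pass. With mCherry both SN libraries lay below both NSN libraries, at -0.46 (SE 0.35, adjusted p = 1). Separation of this kind is common here. Rnaseh1 libraries lay wholly below mCherry for 22.6% and above for 10.3% of genes in NSN, and for 31.7% and 18.9% in SN, while SN lay wholly below NSN for 19% and above for 8.43% with mCherry.

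The other members spread widely between the libraries of a group. Wee2 was at 675 and 542 TPM with mCherry and 1041 and 114 with Rnaseh1 in NSN oocytes, and at 650 and 511 and then 885 and 586 in SN oocytes. Its 2 NSN libraries with Rnaseh1 differed by 9.13 times. Without replicate 1 of that group, Wee2 was called lower with Rnaseh1 in NSN (-2.40, adjusted p = 0.0151) and higher in SN than NSN with Rnaseh1 (2.65, adjusted p = 0.04), which rests on replicate 2 alone. Prkaca, like Wee2, was higher in replicate 1 than in replicate 2 with Rnaseh1, but went the other way with mCherry. Prkaca was at 3.07 and 5.01 TPM with mCherry and 6.41 and 0.54 with Rnaseh1 in NSN. In SN it was at 5.17 and 5.62 TPM and then 6.29 and 3.2. Akap1 was at 47.7 and 54 TPM with mCherry and 44.7 and 22.3 with Rnaseh1 in NSN, where the groups were separate, and at 29.9 and 49.4 and then 40.5 and 33.6 in SN. Prkar1a ran from 14 to 32 TPM over the 8 libraries, with its highest value in SN mCherry replicate 2. The sum of oocyte markers moved with these libraries too, from 5906 to 13748 TPM in NSN with Rnaseh1 and from 6945 to 20677 in SN with mCherry, and its part was not tested.

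Among themselves, pairs of members differed in how far they moved together. Log2 levels were correlated over the 14 libraries, with each table's mean subtracted. The highest pairs were Gpr3 and Gja4 at 0.96, Gpr3 and Akap1 at 0.91, and Prkaca and Wee2 at 0.91. Pde3a stood between -0.44 and 0.08 with every other tested member, and Gpr12 between -0.38 and 0.45. Prkar1a and Wee2 were at 0.19, Prkaca and Prkar1a at 0.48, and Wee2 and Gja4 at 0.51. The level for all gene pairs is not given here. Within the 8 NSN and SN libraries alone, Gpr3 and Gja4 were at 0.92 and Prkaca and Wee2 at 0.91. These values describe libraries that share their preparation and their GC trend. Of 11803 genes tested in both tables, the most alike were Dgat2 and Ube2g2 to Gpr3 (both 0.98), Ube2g2 and Rpn1 to Gja4 (both 0.99), Rbm48 (0.95) and Med27 (0.94) to Wee2, and Caprin2 (0.91) and Taco1os (0.85) to Pde3a. For the remaining members they were Fbxo38 (0.98) and Olfr315 (0.97) to Akap1, Vta1 (0.95) and Spag7 (0.94) to Prkaca, Psmb11 (0.94) and Prss8 (0.93) to Prkar1a, and Hmgb2 and Stim1 (both 0.84) to Gpr12.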

How the data were processed

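RNA was reverse-transcribed with SuperScript II and the cDNA amplified with KAPA HiFi polymerase before library construction, per the labels' protocols. The authors deposited gene-level TPM values, 1 column per library, in 2 tables. Per the submitters' processing notes, the tools were RSEM 1.3.3, STAR 2.7.0d, Trim Galore 0.6.7 and DESeq2, the build was mm10, and no roles were listed. Of 35389 identifiers, 35319 were paired with a symbol. GENCODE M21 on GRCm38 gave coordinates, overlaps and transcript GC content. The tables were tested separately with limma 3.58.1 in R 4.3.3 on log2(TPM + 1), with all groups of the table in 1 fit, an intensity trend in the variance and Benjamini-Hochberg adjustment over all genes tested. Only genes that reached 1 TPM in 2 or more libraries entered a fit. A gene was called at an adjusted p under 0.05, and "rose" and "fell" are used only then. The script was run on simulated data with independent genes, which checked the mean estimated change and not the calls. The members and lists were chosen with earlier results of these data known. All members are named, with up to 2 other genes per role of smallest p in the rescue contrast of Rnaseh1 and mCherry, and the 2 genes most alike to each member. Alternatives covered the pseudocount, the filter, scaling, GC trend, replicate block, the groups in the fit and leaving out libraries. Akap2 has no value in the rescue table and was not used there.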

Additional observations from a re-analysis of the deposited data

Results flagged for a closer look

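Pde3a was singled out because both NSN libraries with Rnaseh1 lay below both mCherry libraries, at 16.7 and 15.1 against 17.8 and 18.2 TPM, while both SN libraries with Rnaseh1 lay above, at 15.7 and 19.6 against 13.5 and 12.1 TPM. The SN effect minus the NSN effect was 0.60 on the log2(TPM + 1) scale (SE 0.50), and the test of that difference did not pass (limma adjusted p = 1). Over its 19 alternatives the difference ran from 0.45 to 0.75 and passed in none.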

How the results depend on the processing

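With Rnaseh1 against mCherry in the rescue set, Gpr3, Gja4 and Wee2 passed in the same direction in all 15 alternatives each. Median centring and quantile normalization turned Pde3a to 0.58 and 0.70 and lost Prkar1a; removal of the GC trend, with or without the replicate block, turned Pde3a to 0.53, Akap8 to 0.058 and Gja3 to 0.40 and lost Prkaca and Akap1. For Rnaseh1 plus Supt6 against Rnaseh1, the same removal turned Pde4a to -0.26 and Gja3 to -0.52, lost Akap1 (0.28, adjusted p = 0.0613) and, with the block, Prkaca (0.69, adjusted p = 0.0612). Pde3a was called lower there with centring, quantile normalization and both GC settings (-0.76 to -0.65), and the share of higher calls among all genes went from 70.5% to 50.7%, and to 46.6% with centring. Members called lower with both constructs against mCherry went from 2 to 1 with a pseudocount of 0.1, no filter, GC trend removal and GC removal with the replicate block, and to 1 on leaving out each of the 4 libraries in turn; the genes called there were 1711, 927 without a filter, 2824 with only the compared groups fitted and 85 to 320 leaving out a library. The members called lower there went to 3, with Wee2 gained, under 4 settings. These were a pseudocount of 5, a filter at 5 TPM, quantile normalization and only the compared groups fitted. The share of higher calls in that comparison went from 42.9% to 53.2% with centring and 63.4% with GC removal. Without NSN Rnaseh1 replicate 1, members called went from 0 to 1 for Rnaseh1 in NSN (Wee2, with 1152 genes called) and for SN against NSN with Rnaseh1 (Wee2, 112 genes); leaving out NSN Rnaseh1 replicate 2 and SN mCherry replicate 2 together gave 1 in the latter (Gja4 at -1.18, adjusted p = 0.0488, 338 genes). Replicate numbers are shared between groups but the labels do not pair them, and deviations of same-numbered libraries correlated at -0.51 to 0.17. The replicate block left 6 members called with Rnaseh1 in the rescue set and 2 with both constructs, where Gpr3 was lost (adjusted p = 0.059) and Wee2 gained (adjusted p = 0.0493). Signs of values that passed in neither analysis changed in 86 cases. The cause of these changes was not tested. A group left with 1 library is assumed to vary like the others.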
